A study of Rattus norvegicus with 6 samples.

Results

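The 10 genes described here make, break down, recycle and use glutathione in rat renal cortex. They were taken from a fixed list of symbols, and a probe counted as a member when its transcript accession belonged to one of those genes. They are 10 of 15645 genes with a named probe, and 19 of the 28206 probes that could be named. Of these, 9 genes and 16 probes were tested. Slc7a11 was the gene that could not be tested.

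The samples were renal cortex from male Sprague-Dawley rats, 5 weeks old when bought. Vehicle animals (n = 3) received corn oil and treated animals (n = 3) received 250 mg/kg per day of sulfone bis(p-chlorophenyl), a diaryl sulfone with a chlorine on each ring, both for 4 weeks. Total RNA of each animal was put on a one-colour Agilent array of its own. Slide 1 held the 3 vehicle arrays and treated 1, and slide 2 held treated 2 and treated 3. The scans divided the arrays in the same way. Cortex is a mixture of nephron segments and other cells, so more cells of a type and more RNA per cell cannot be told apart in these values.

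Glutathione is a tripeptide of glutamate, cysteine and glycine. Its first and rate-limiting step is carried out by glutamate-cysteine ligase, a catalytic subunit (Gclc) with a modifier subunit (Gclm), and its second by glutathione synthetase (Gss). Gamma-glutamyltransferase (Ggt1) on the brush border of the proximal tubule begins the breakdown of glutathione outside the cell, and gamma-glutamylcyclotransferase (Ggct) releases amino acids from gamma-glutamyl peptides inside it. Glutathione reductase (Gsr) returns the oxidised form with NADPH, and the selenoenzymes Gpx1, Gpx3 and Gpx4 use glutathione to reduce peroxides. Kidney is rich in the enzymes of this cycle, and Gclc and Gclm are known targets of the transcription factor NRF2, which binds antioxidant response elements.

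The promoter windows of both subunits of glutamate-cysteine ligase are shown because the 2 genes encode subunits of 1 enzyme and had different values over the arrays. They come from RefSeq (GRCr8) and run from 250 bases before to 50 bases after the annotated start, 5′ to 3′ on the strand of the gene, which is the plus strand for both. The Gclm window lies at chr2:213031885-213032184 and the Gclc window at chr8:87510226-87510525. The Gclc window is set on a start inside the RefSeq span of the gene, not on its outermost start. Capitals mark a match to the core of the antioxidant response element, TGACNNNGC, searched on both strands.
Gclm: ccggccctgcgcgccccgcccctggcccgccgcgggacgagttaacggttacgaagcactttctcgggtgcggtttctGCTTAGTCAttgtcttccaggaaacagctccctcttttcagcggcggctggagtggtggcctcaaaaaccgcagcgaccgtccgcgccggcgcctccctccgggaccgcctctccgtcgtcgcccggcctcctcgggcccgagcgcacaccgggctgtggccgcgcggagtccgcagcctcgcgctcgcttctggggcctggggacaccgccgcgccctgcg
Gclc: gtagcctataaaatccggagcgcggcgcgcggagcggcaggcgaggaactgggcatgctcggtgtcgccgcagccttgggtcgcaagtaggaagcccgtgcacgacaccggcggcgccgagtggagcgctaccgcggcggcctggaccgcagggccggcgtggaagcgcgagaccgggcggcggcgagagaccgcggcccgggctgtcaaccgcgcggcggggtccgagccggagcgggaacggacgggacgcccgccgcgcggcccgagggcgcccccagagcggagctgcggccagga
The Gclm match reads GCTTAGTCA on the gene's strand, so the motif is on the other strand, and it begins 172 bases before the start (position -172). No match lay in the Gclc window. Over the 11 windows found for 9 of the genes (3 for Gpx4, none found for Gsr), 1 window, or 9.09%, held the motif, against 12.1% of all 33469 promoter windows of the same length. Among the 10389 windows of tested genes, 14.5% held it. Some of the Gpx4 windows overlap each other. A match is a description of the letters and says nothing of binding.

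Each value below, called log2 signal, is a processed signal on the log2 scale with the 75th percentile of its own array taken off, so 0 is the level of that percentile. Levels of different probes are not compared, except to choose the brightest probe of a gene and where the signals of a marker list are summed. A gene with several probes is given by the brightest, and a gene was called when its limma p, adjusted by Benjamini-Hochberg over all 40643 tested probes, was under 0.05.

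None of the 9 tested glutathione genes was called, against 0.0165% of the 12118 tested genes in either direction (0.00825% higher and 0.00825% lower), and their limma adjusted p-values lay between 0.134 and 0.821. At an unadjusted limma p under 0.05, 4 members (Gss, Ggt1, Ggct and Gpx4) were higher, against 10.1% of genes, and 0 were lower, against 11.3% (21.4% in either direction). The groups did not overlap for 3 members, Gss, Ggct and Gpx4, all higher in treated cortex, against 13.9% of genes higher and 16.8% lower. The median log2 fold change was 0.22 over the members and -0.01 over all tested genes, and 7 of the 9 differences were positive. The number of members higher without overlap was 5 without vehicle 3 (against 19.2% of genes), without treated 1 (27.0%) or without treated 2 (16.9%), with different members among the 5. Without treated 1, Gsr and Gpx1 joined, and without vehicle 3 or treated 2, Gclc and Ggt1 did.

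**Figure D1:**
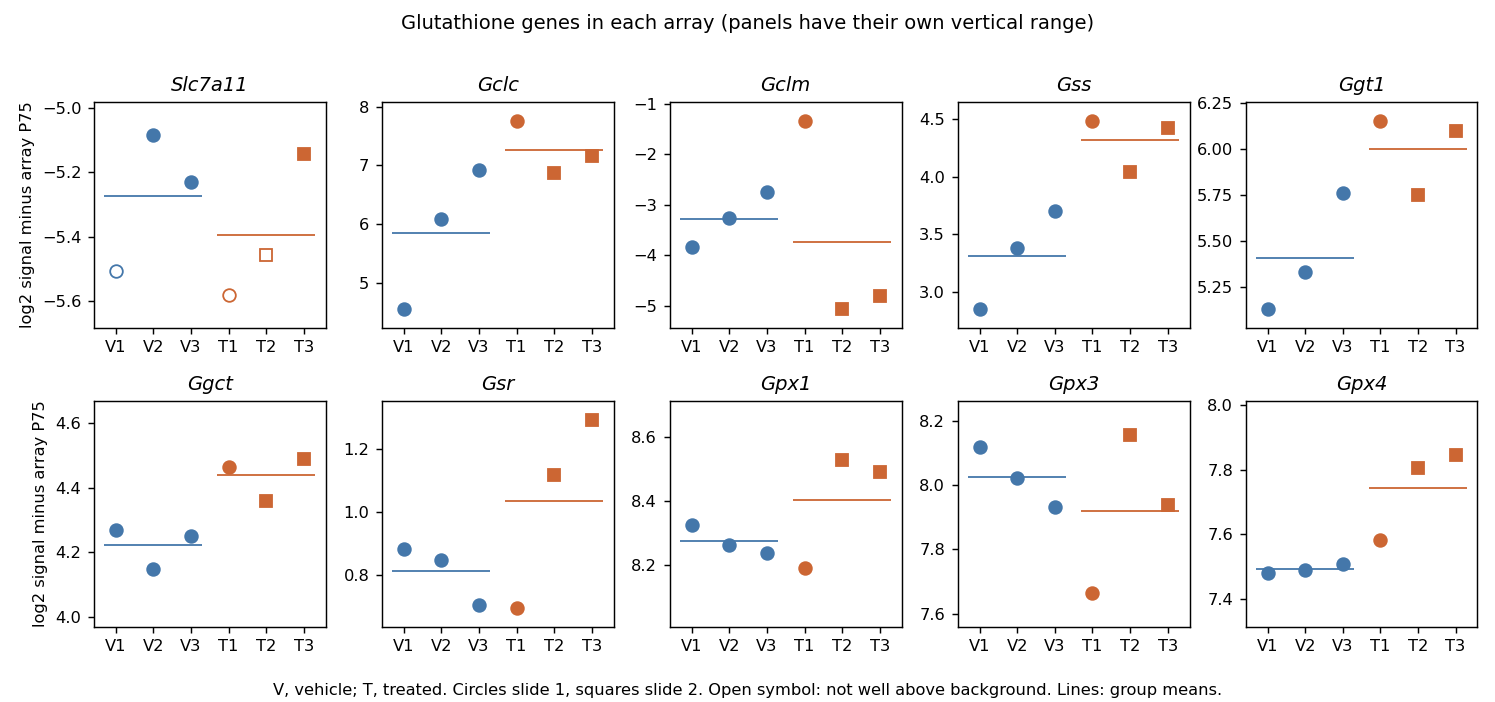
Log2 signal (relative to the array's 75th percentile, P75) of the 10 genes on the 3 vehicle (V, blue) and 3 treated (T, orange) arrays, with group means as lines, circles for slide 1, squares for slide 2 and open symbols where the spot was not well above background. Gclc, Gss and Ggt1 were lowest in vehicle 1 and highest in treated 1, and Gsr, Gpx1 and Gpx4 were highest on the 2 arrays of slide 2.

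One carrier that brings cystine into cells is xCT, encoded by Slc7a11, and the transcript of this gene was at the limit of detection. Of its 3 probes, 2 gave no spot well above background. The remaining probe read -5.51, -5.08 and -5.23 on the vehicle arrays (1, 2 and 3) against -5.58, -5.46 and -5.14 on the treated arrays (1, 2 and 3), the order kept for every gene below. It was well above background in vehicle 2, vehicle 3 and treated 3 only. The groups overlapped on it, and no fold change is given.

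Gclc, the catalytic subunit, had the widest difference between group means of the 9 tested members. Its log2 signal was 4.56, 6.09 and 6.92 with vehicle against 7.76, 6.87 and 7.16 with treatment. Treated 2 lay just below vehicle 3, so the groups overlapped, and vehicle 1 stood far below the other arrays. The means were 5.86 ± 1.19 (SD, n = 3) and 7.26 ± 0.45 (SD, n = 3), a log2 fold change of 1.41 (95% interval -0.07 to 2.88, limma adjusted p = 0.257). The second Gclc probe, which is dimmer, ran from -0.03 in vehicle 1 to 3.71 in treated 1 and gave 1.57. The 3 vehicle arrays alone spanned 2.36 on the log2 scale, or 5.12-fold, which is more than the group difference. Of the 12118 tested genes, 106 had a wider vehicle span. Without vehicle 1 the Gclc difference was 0.76 and without vehicle 3 it was 1.94.

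Gss, the second enzyme of synthesis, was higher in every treated array. The vehicle arrays read 2.85, 3.38 and 3.71 and the treated arrays 4.49, 4.04 and 4.42. The difference was 1.00 on the log2 scale, or 2.00-fold (SE 0.24, limma adjusted p = 0.134 over all tested probes), and it did not pass. It was 1.17 with slide as a block, an estimate that sets treated 1 against the 3 vehicle arrays, and 0.92 for treated 2 and 3 against vehicle. Gss had the smallest adjusted p of the members.

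Ggt1, the brush border enzyme of glutathione breakdown, read 5.13, 5.33 and 5.76 with vehicle against 6.15, 5.75 and 6.10 with treatment. Treated 2 and vehicle 3 were nearly equal, so the groups overlapped by a small margin. The difference was 0.59 on the log2 scale, or 1.51-fold (95% interval 0.12 to 1.07, limma adjusted p = 0.188).

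Gclc and Ggt1 placed the 6 arrays in the same order, from vehicle 1 through vehicle 2, treated 2, vehicle 3 and treated 3 to treated 1, and Gss differed from this order in vehicle 3 and treated 2. Of the 4 listed markers of the straight proximal tubule (S3), 2 moved with these genes, and so did the thick limb marker Umod. Slc7a13, an amino acid transporter of S3, read 2.50, 5.27 and 6.26 with vehicle against 7.43, 6.12 and 6.13 with treatment. Slc22a7, an organic anion transporter of S3, read -3.86, -2.31 and -0.57 against 0.21, -0.16 and -0.49. Both were lowest in vehicle 1 and highest in treated 1, as Gclc was. The other 2 of the 4 S3 genes of the marker list did not follow: Cyp7b1 was lower in every treated array than in any vehicle array (log2 fold change -0.75), and Slc5a8 (1.03) was lowest in vehicle 3 and highest in treated 2. All 4 were well above background on every array, and their summed signal, in multiples of each array's 75th percentile, ranged from 9.34 to 80.3 over the vehicle arrays and from 75.2 to 178 over the treated arrays. Slc7a13 alone made up most of that sum on every array, so the sum mainly restates that gene. In vehicle 1, where Slc7a13 was lowest, Slc5a8 (log2 signal 1.60) also added to it. Umod, the uromodulin gene of the thick limb, followed the order of Gclc and Ggt1, from 8.02 in vehicle 1 to 8.79 in treated 1. In the same marker list Slc12a1 (log2 fold change 0.34) followed it too, and Slc12a3 (-0.11) and Calb1 (-0.28) did not. The summed signal of the 7 markers of the earlier proximal tubule (S1 and S2) overlapped between the groups. It ran from 892 to 935.5 with vehicle and from 740.1 to 985 with treatment. The largest single differences of that list were those of Slc2a2 (0.76) and Slc5a12 (0.43). Lrp2 (-0.325) went the other way and was lower in every treated array than in any vehicle array. Hepatocyte markers varied between arrays in another order, with albumin (Alb) highest in treated 3 at 3.92 and lowest in vehicle 3 at -0.28. The part of segment content in the Gclc, Gss and Ggt1 differences was not tested.

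**Figure D2:**
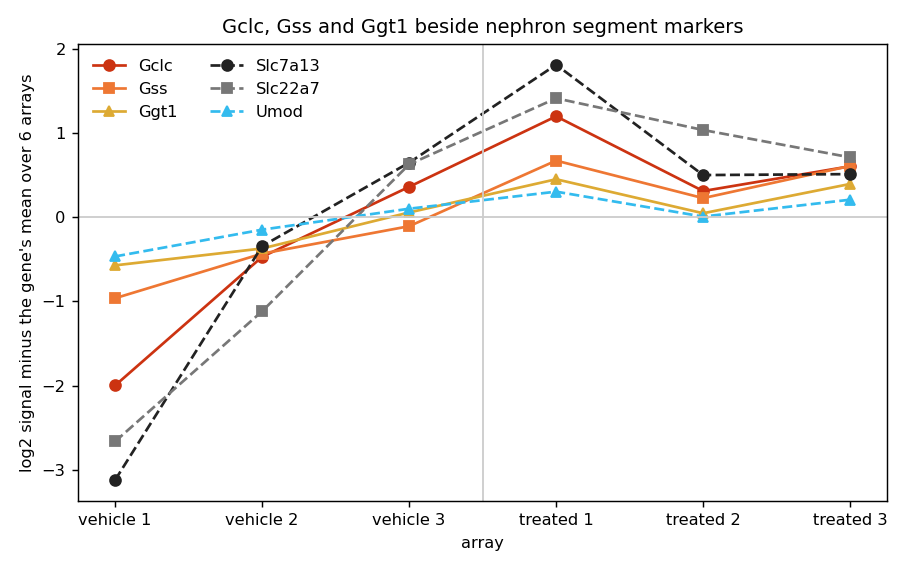
Log2 signal of Gclc, Gss and Ggt1 (solid lines) and of the S3 markers Slc7a13 and Slc22a7 and the thick limb marker Umod (dashed lines) on each array, after each gene's mean over the 6 arrays was taken off. The lines only join values of 1 gene. All 6 genes drawn are lowest in vehicle 1 and highest in treated 1, and Slc7a13 spans 4.93 on the log2 scale against 3.19 for Gclc. The S3 markers Cyp7b1 and Slc5a8 and the distal nephron markers Slc12a3 and Calb1 did not follow and are not drawn.

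Over the 6 arrays the genes with the profiles nearest to that of Gclc were Aadat, Mme and Ppic, at Euclidean distances of 0.24, 0.25 and 0.28 in centred log2 values among 11682 genes well above background on every array. The nearest to Gss were Ftcd, Acss2 and St3gal2, at 0.13, 0.21 and 0.30. Aadat, an aminotransferase of the kynurenine pathway, read 2.86, 4.12 and 4.98 with vehicle against 5.88, 4.98 and 5.41 with treatment. Ggt1 ranked 39 for nearness to Gss and 161 for nearness to Gclc.

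Gclm, the modifier subunit, did not share the profile of its partner over all arrays. On slide 1 both genes rose from vehicle 1 through vehicle 2 and vehicle 3 to treated 1. There treated 1 exceeded the vehicle mean by 1.90 for Gclc, so the difference in profile lay in the slide 2 arrays. The single, dim Gclm probe was well above background on all arrays, at -3.85, -3.26 and -2.75 with vehicle. With treatment it read -1.34, -5.07 and -4.81. Treated 1 was thus above every vehicle array and treated 2 and 3, both on slide 2, were below every vehicle array. The log2 fold change was -0.45 with a 95% interval of -2.93 to 2.03 (limma adjusted p = 0.821), so neither direction was resolved. Treated 1 exceeded the vehicle mean by 1.95, and treated 2 and 3 were below it by a mean difference of -1.65. The difference was 0.08 without treated 3 and 0.21 without treated 2. Without treated 1 it was -1.65 and was called (limma adjusted p = 0.048), but all vehicle arrays then lie on slide 1 and both treated arrays on slide 2, and slide and treatment cannot be told apart. In that comparison 5.42% of genes were called lower and 4.18% higher. Over every alternative tried and array left out the Gclm adjusted p lay between 0.048 and 0.980.

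Ggct, which acts on gamma-glutamyl peptides in the cell, differed by a small amount. Vehicle arrays read 4.27, 4.15 and 4.25 and treated arrays 4.47, 4.36 and 4.49, so every treated array was above every vehicle array. The log2 fold change was 0.22, or 1.16-fold (SE 0.08, limma adjusted p = 0.210). The 4 Ggct probes did not give 1 answer: their log2 fold changes ran from -0.30 to 0.25, 3 were positive, and the groups were separate on 2. With the mean of the 4 probes the difference was 0.07, and with normexp background correction it was 0.097, and the groups overlapped in both.

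For the recycling enzyme Gsr and the peroxidases Gpx1 and Gpx4 the slide 2 arrays were the highest of the 6. Gsr read 0.88, 0.85 and 0.71 with vehicle against 0.70, 1.12 and 1.29 with treatment. Treated 1 was the lowest of the 6 and treated 2 and 3 were the highest. The mean difference was 0.22 (95% interval -0.18 to 0.62, limma adjusted p = 0.468), made up of -0.12 in treated 1 and a mean of 0.39 in treated 2 and 3.

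Gpx1, the abundant cytosolic peroxidase, read 8.33, 8.26 and 8.24 with vehicle against 8.19, 8.53 and 8.49 with treatment. Again treated 1 was lowest and the slide 2 arrays were highest, and the mean log2 difference was 0.13 (SE 0.11, limma adjusted p = 0.537). Within slide 1 the sign turned, to -0.09. The second Gpx1 probe gave a log2 fold change of 0.17. On that probe the slide 2 arrays were again highest, but treated 1 lay among the vehicle arrays, with a difference of -0.002 from their mean.

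Gpx4, which reduces lipid peroxides in membranes, was the most even of the members in the vehicle group, at 7.48, 7.49 and 7.51. With treatment it read 7.58, 7.81 and 7.85, so all 3 treated arrays lay above the vehicle arrays. The log2 fold change was 0.25, or 1.19-fold (SE 0.09, limma adjusted p = 0.214), and the 3 Gpx4 probes, all separate between the groups, ran from 0.18 to 0.25. Treated 1 exceeded the vehicle mean by 0.09, and treated 2 and 3 by a mean of 0.33. Without treated 1, where slide and treatment cannot be told apart, Gpx4 was called at 0.33 (limma adjusted p = 0.039).

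Gpx3, the secreted peroxidase that the proximal tubule releases into plasma, read 8.12, 8.02 and 7.93 with vehicle. With treatment it read 7.67, 8.15 and 7.94, with treated 1 the lowest and treated 2 the highest of the 6. The log2 fold change was -0.10 (95% interval -0.44 to 0.24, limma adjusted p = 0.692). Treated 1 lay below the vehicle mean (difference -0.36), and treated 2 and 3 differed from it by a mean of 0.02. The difference was -0.24 with quantile normalization, where the groups did not overlap, and 0.02 without treated 1.

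**Figure D3:**
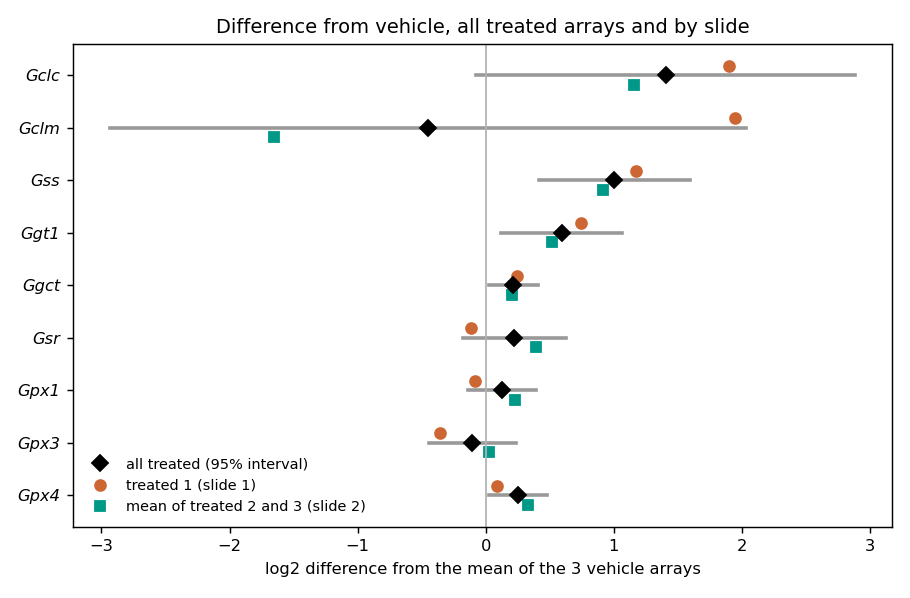
Log2 difference from the mean of the 3 vehicle arrays for the 9 tested genes: all treated arrays with the 95% interval of the limma fit (black), treated 1 alone, which shares slide 1 with the vehicle (orange), and the mean of treated 2 and 3 on slide 2 (green). Gclm, Gsr, Gpx1 and Gpx3 differ in sign between treated 1 and the slide 2 arrays, and Gclc, Gss, Ggt1, Ggct and Gpx4 do not.

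Split by slide, treated 1 was above all 3 vehicle arrays for 6 of the 9 members, against 27.5% of genes, and below all of them for Gsr, Gpx1 and Gpx3, against 38.6%. Treated 2 and 3 were both above all vehicle arrays for 5 members, against 27.0% of genes, and both below for Gclm, against 26.7%. The members above in treated 1 were Gclc, Gclm, Gss, Ggt1, Ggct and Gpx4, and those above in treated 2 and 3 were Gss, Ggct, Gsr, Gpx1 and Gpx4. Gss, Ggct and Gpx4 were thus above on both slides.

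The lists of related genes were read beside the members, and no gene of any of them was called, against 0.0165% of tested genes. The lists share genes. Txnrd1, Srxn1 and Me1 each stand in another list and among the NRF2 reference targets, and Chac1 is in the turnover and ATF4 lists. Among 8 genes of cystine and methionine-derived precursor supply the groups were separate for 3 higher and 1 lower (Slc7a9). Over all tested genes the shares were 13.9% higher and 16.8% lower. The median log2 fold change of the 8 was 0.26. At an unadjusted limma p under 0.05, 3 were higher and 1 lower, against 10.1% and 11.3% of genes. Mat2a, which makes S-adenosylmethionine, read 0.74, 0.65 and 0.81 with vehicle against 1.87, 1.55 and 1.42 with treatment (log2 fold change 0.88, limma adjusted p = 0.085). Cth, which releases cysteine from cystathionine, read 1.67, 1.92 and 1.92 against 2.84, 2.39 and 2.71 (log2 fold change 0.81, limma adjusted p = 0.096). Both were above all vehicle arrays on each slide.

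Of 13 genes of glutathione turnover and mercapturate processing, the groups were separate for 4 higher (against 13.9% of genes) and 1 lower (Chac1; 16.8%). Their median was 0.21. The largest differences were those of Ggt5 (0.58) and Ggt7 (-0.52, overlapping groups). Of 6 tested genes listed under glutathione transport, 5 were separate and higher (against 13.9% of genes), with a median of 0.39. Among them Abcc4, an efflux pump, had 0.62 and Slc25a39, a carrier of glutathione into mitochondria, had 0.44 (limma adjusted p = 0.110 and 0.151).

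Among 15 other glutathione peroxidases and selenoproteins the median log2 fold change was 0.07. Of these, 4 were separate and higher (against 13.9% of genes) and 0 lower (16.8%). The largest differences were those of Gpx2 (1.12, overlapping groups) and Txnrd1, thioredoxin reductase (0.64, separate groups). The 7 genes that make and insert selenocysteine, the residue of the Gpx1, Gpx3 and Gpx4 active sites, had a median of -0.05, and the groups overlapped for all 7. Their differences ran from -0.07 for Eefsec to 0.20 for Sephs2.

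The 17 thioredoxin, glutaredoxin and peroxide removal genes had a median of 0.13. Of these, 9 were separate and higher (against 13.9% of genes) and 0 lower (16.8%). They were led by Srxn1, sulfiredoxin (1.22), and Cat, catalase (0.34). The 7 NADPH supply genes also had a median of 0.13, with 4 separate and higher, against 13.9% of genes. They were led by Me1 (0.89, limma adjusted p = 0.064) and Tkt (0.41).

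The 13 NRF2 reference targets had a median of 0.64, the value of Txnrd1, with 10 separate and higher, against 13.9% of genes. They were led by Hmox1 (2.18) and Nqo1 (1.54), with limma adjusted p = 0.164 and 0.120. Hmox1 read -1.24, -1.56 and -1.96 with vehicle against -0.79, 0.85 and 1.72 with treatment, so treated 2 and treated 3 were highest. Nqo1 read -2.84, -3.71 and -3.31 against -1.14, -2.12 and -1.98, so treated 1 was highest. The 8 NRF2 regulators had a median of 0.26 with 5 separate and higher, against 13.9% of genes. They were led by the small Maf gene Maff (1.03, limma adjusted p = 0.064) and Sqstm1 (0.66). Nfe2l2, which encodes NRF2, and its inhibitor Keap1 had 0.14 and 0.17 with overlapping groups. All 8 regulators were above all vehicle arrays in both treated 2 and treated 3, against 27.0% of genes. In treated 1, 5 were, against 27.5%. The 9 genes of the ATF4 pathway, which also controls Slc7a11, had a median of -0.14. Of these, 1 was separate and higher (against 13.9% of genes) and 3 lower (16.8%). The largest differences there were 0.45 for Trib3 and -0.33 for Atf3.

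**Figure D4:**
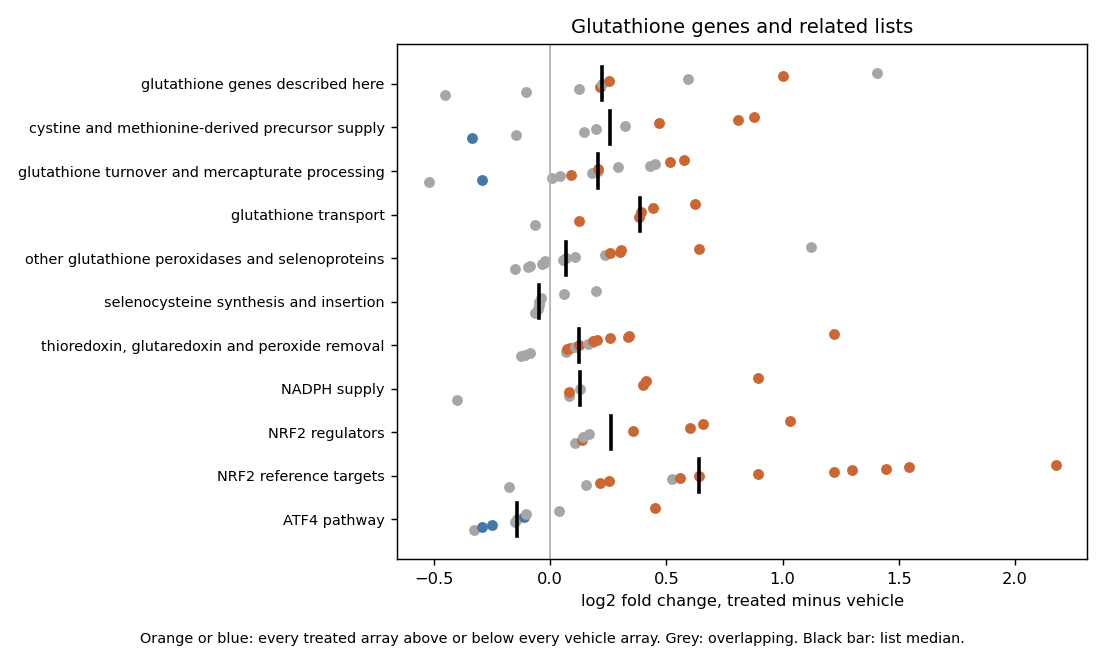
Log2 fold change (treated minus vehicle) of each tested gene in the glutathione list and in 10 related lists, with black bars for list medians. A gene that belongs to more than 1 list is drawn in each. Orange and blue points are genes with every treated array above or below every vehicle array, and medians run from -0.14 for the ATF4 pathway to 0.64 for the NRF2 reference targets, with 0.22 for the glutathione genes described here.

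Across the arrays 66.1% to 68.2% of non-control probes were well above background, and the 75th percentile of processed signal ran from 910.3 to 1101. Arrays carry no count of molecules, and the number of animals, 3 a group, limits the precision. The median log2 fold change of the macrophage markers was -0.29 over 6 tested genes (Adgre1 -0.85, Cd14 0.50), and their summed signal was 81.6 to 93.0 with vehicle against 58.8 to 95.2 with treatment, most of it from Lyz2 on every array. For 3 lymphocyte markers the median was -0.49 (Ptprc -0.49, and Cd2, lower in every treated array but well above background on only 1 of the 3), and for 4 endothelial markers it was -0.03 (Cdh5 -0.09, Kdr -0.07). For 5 collecting duct markers it was -0.14 (Scnn1g -0.26, Slc4a1 0.21). For 4 markers of the thick limb and distal nephron it was 0.12 (Umod 0.34, Slc12a1 0.34), for 3 adipocyte markers 0.76 (Cidec 1.86, Fabp4 0.76) and for 3 red blood cell markers 0.14 (Alas2 0.29, Slc25a37 0.14). The 7 tested hepatocyte markers had a median of 0.44 (Apoa1 2.32, Ttr 0.61), with overlapping groups for all 7. The 7 S1 and S2 markers had a median of 0.04 and the 4 S3 markers 1.46. The proximal tubule genes Slc34a1, Slc22a6 and Lrp2 were well above background on all 6 arrays, and Lrp2 was lower in every treated array.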

How the data were processed

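The authors deposited one Feature Extraction file per array. Per the file headers these hold linear intensity values written by Agilent's Feature Extraction software, release 10.7.1.1 (10.7 in the submitters' processing notes), with background already subtracted. The deposited series table also holds linear intensity, with column medians of 0.1047 to 0.11. It correlated with the scanner values at a log2 r that rounds to 1 on each array. Its scaling is not given in the sources used here.

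The values used are processed signals divided by the 75th percentile of all 61537 non-control probes on the array, then taken to log2. No spot was saturated, and 11 probes with an outlier flag were left out. A probe entered the test if it was well above background throughout the vehicle group, the treated group or both. Accessions were matched without versions to RefSeq genes of GRCr8. The test, two-sided, was limma's moderated test (version 3.58.1 under R 4.3.3; lmFit, then eBayes), which also gave the 95% intervals. On data simulated for this comparison over 40643 probes, the test called 14% of 50 probes changed by 0.5, 56% of 50 changed by 1 and 80% of 50 changed by 2 on the log2 scale, with 7 unchanged probes called.

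The genes and lists were chosen with earlier results of these data known. Named outside the members were the 2 genes of each list with the largest absolute difference, 5 fixed genes (Nfe2l2, Keap1, Nqo1, Hmox1 and Txnrd1) and the 3 nearest profiles of 2 members. A marker list is not reported here. Other names (Slc7a9, Chac1, Cyp7b1, Slc5a8, Slc12a3, Calb1, Alb, Lyz2, Slc34a1, Slc22a6 and Lrp2) were chosen after their values were seen. The alternatives changed how background and scale were handled, which dim probes entered, whether slide or replicate number was a block, whether scanner or series table values were used, the variance model, and which probe stood for a gene, and left out each array in turn.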

Additional observations from a re-analysis of the deposited data

How the results depend on the processing

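Over 18 alternatives, no member was called except without treated 1, where Gpx4 and Gclm were. Members called ran from 0 to 1 higher and from 0 to 1 lower over the left-out arrays. Without treated 1, 4.18% of all tested genes were called higher and 5.42% lower. Gclc, Gss, Ggt1, Ggct and Gpx4 kept their sign in all 18. Gclm turned to 0.086 with normexp, 1.95 with slide as a fixed block and with slide 1 arrays alone, and 0.60 with slide as a random block, and ran from -1.65 to 0.21 over the left-out arrays. Gsr turned to -0.12 and Gpx1 to -0.086 with slide as a fixed block and on slide 1 alone. Over the left-out arrays Gpx3 ran from -0.22 to 0.023 and Gpx4 from 0.20 to 0.33. The cause of these turns was not tested, except that with slide as a fixed block and on slide 1 alone, treated 1 is by construction the only treated array in the estimate. Non-overlapping members were 3 to 5 higher (against 16.0% to 27.0% of genes) and 0 to 1 lower (20.0% to 26.7%) over the left-out arrays. They were 5 higher with median centring (15.9%), where Gclc and Ggt1 joined, and 2 higher with probes averaged (13.1%). With quantile normalization 1 was lower (Gpx3, against 17.6%). On slide 1 alone, where 1 array is set against 3, 6 were higher (27.5%) and 3 lower (38.6%). With normexp 3 were higher (13.9%), with Ggt1 in place of Ggct. The members' median was 0.16 with quantile normalization and 0.19 to 0.33 over the left-out arrays. Probes called over the whole table, 3 in all, were 136 with normexp, 17 with median centring, 1 with dim probes kept, 0 when a probe had to be above background on all 6 arrays, 1 with slide as a fixed block, 0 on slide 1 alone, 0 with the replicate block, 156 with the trend and robust variance model, 45 among genes when probes were averaged, and 0 to 4307 over the left-out arrays, the highest without treated 1. The replicate numbers share only a number: same-numbered arrays' deviations from the group means correlated at -0.21, 0.01 and -0.16 over tested probes, and the replicate block changed no member's call. Signal over background limits Slc7a11.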
